A study of Mus musculus with 13 samples.

Results

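Mesothelial genes of visceral fat are the transcripts that mark the mesothelium, the single layer of flat epithelial cells that covers the parametrial fat pad and the walls of the body cavity. The mesothelium comes from mesoderm, keeps keratins and other epithelial proteins, secretes lubricating surface glycoproteins, and is a known feature of visceral but not subcutaneous fat. Because it forms only the outer skin of the pad, the amount of its RNA in a whole-tissue sample depends on how much surface the dissected piece held as well as on what the cells express. The 6 genes described here, Msln, Upk3b, Upk1b, Wt1, Krt19 and Lrrn4, were chosen by name as markers of this cell layer, and all 6 were found among the 33618 gene identifiers of the raw count table, with 1 identifier each.

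Bulk RNA-Seq was performed on whole parametrial white adipose tissue (pmWAT) of 13 female mice, 1 library per mouse. The 7 libraries labelled fl/fl came from Lmna fl/fl control mice, which carry loxP-flanked Lmna alleles and no Cre, and the 6 labelled iADKO came from Lmna fl/fl Adipoq-CreERT2+/- mice. Every mouse of both genotypes received tamoxifen at 50 mg/kg on 5 consecutive days at 12 to 14 weeks of age, and pmWAT was taken 2 weeks posttamoxifen. Adipoq is an adipocyte gene, so deletion of Lmna, which encodes lamin A/C, was directed at adipocytes, and the mesothelium was not the targeted cell type. Tamoxifen-treated mice with Cre and without floxed alleles were not among the groups, so effects of Cre and of the deletion cannot be told apart.

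Between 18854223 and 19776491 reads per library were counted on genes. CPM below are counts scaled to a common library total after TMM normalization, a scaling that corrects for differences in library composition, and log2 fold changes are iADKO minus fl/fl from edgeR's quasi-likelihood test with p-values adjusted by the Benjamini-Hochberg method over 16753 genes tested. Mean CPM of Lmna itself were 84.7 ± 7.51 for the 7 fl/fl mice and 96.7 ± 11.5 for the 6 iADKO mice (SD). That count covers the whole gene and all cells of the tissue, whereas the deletion was directed at a few late exons in adipocytes, so it is no check of the labels, and every direction below rests on them. All 8 listed adipocyte markers were lower in iADKO, and 7 of 8 macrophage markers were higher.

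The 6 members differ in what they do at the cell surface and inside the cell. Msln (mesothelin; ENSMUSG00000063011, GRCm39 chr17:25967312-25985619, minus strand) encodes a surface glycoprotein that binds the mucin encoded by Muc16. Lrrn4 (ENSMUSG00000043110, chr2:132705985-132735941, minus strand) encodes a membrane protein with leucine-rich repeats. Wt1 (ENSMUSG00000016458, chr2:104956625-105003961, plus strand) encodes a zinc finger transcription factor of the mesothelium and of visceral fat progenitors. Upk3b (ENSMUSG00000042985, chr5:136067350-136075342, plus strand) and Upk1b (ENSMUSG00000049436, chr16:38591981-38620727, minus strand) encode uroplakins, membrane proteins first known from the plaques of the urinary tract lining. Krt19 (ENSMUSG00000020911, chr11:100031636-100039491, minus strand) encodes an acidic keratin of simple epithelia. Each of the 6 loci overlaps at least 1 annotated gene on the other strand (Crls1 at Lrrn4, Wt1os at Wt1, long noncoding genes at the rest). The libraries were strand-specific, but the strand setting of the counting is not given in the sources used here, so reads of those partners may be part of the counts.

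Upstream sequence was at hand for Lrrn4 and Upk3b, which rose and fell together between mice, and is shown because both windows hold the core motif of TEAD factors. The 250 bases before each annotated start are given 5' to 3' on the gene's strand (RefSeq, GRCm38.p6; Lrrn4 at chr2:132880863-132881112, minus strand, and Upk3b at chr5:136038246-136038495, plus strand), with capitals for GGAATG or its reverse complement CATTCC.

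Lrrn4: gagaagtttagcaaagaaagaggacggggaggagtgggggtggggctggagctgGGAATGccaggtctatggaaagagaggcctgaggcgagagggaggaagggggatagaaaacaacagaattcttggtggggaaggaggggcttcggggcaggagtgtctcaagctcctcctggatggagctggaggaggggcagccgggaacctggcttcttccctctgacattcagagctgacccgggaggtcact

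Upk3b: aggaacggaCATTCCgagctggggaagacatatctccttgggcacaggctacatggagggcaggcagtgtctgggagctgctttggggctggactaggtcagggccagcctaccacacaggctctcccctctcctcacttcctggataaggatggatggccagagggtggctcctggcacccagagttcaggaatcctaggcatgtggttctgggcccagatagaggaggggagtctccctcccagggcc

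The match in Lrrn4 lies 196 to 191 bases before the start, and the one in Upk3b lies 241 to 236 bases before the start on the opposite strand. Searched on both strands, GGAATG occurs in 12.64% of 32851 RefSeq windows of the same 250 bases. The pattern GNGNGGGNG, a short form of the site that WT1 protein binds, matched 3 times in the Lrrn4 window, with overlaps, and 1 time in the Upk3b window, against 35.81% of all windows with at least 1 match. These are letter matches and not evidence of binding.

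No member passed the test between genotypes, although all 6 log2 fold changes were above 0. The count of 0 of 6 stands beside 30.5% of all genes tested (14.1% higher and 16.3% lower in iADKO). Without adjustment, 2 of the 6, Upk1b and Krt19, had a p under 0.05, and DESeq2's Wald test called 1 member, Krt19, while limma on the deposited log2 values called 0. The median log2 fold change was 0.25 over the members and 0.03 over all genes tested. For each of the 6 the CPM values of the genotypes overlapped, while 6.64% of all genes tested had groups that did not overlap. P-values here set the difference between genotypes against the spread between mice. In whole tissue, a difference in the number of mesothelial cells and a difference in their RNA per cell cannot be told apart.

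Msln in fl/fl ranged from 47.0 CPM over a median of 56.5 to 118, and in iADKO from 20.5 over a median of 86.9 to 134. The highest and the lowest of all 13 mice were both iADKO, replicates 1 and 6, and the other 4 iADKO mice lay inside the fl/fl range. The log2 fold change was 0.23 ± 0.35 (SE; 95% interval -0.51 to 0.98; adjusted p = 0.631), and the exact two-sided permutation p of the difference in mean log2 CPM was 0.802.

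Lrrn4 repeated that order. It ranged from 38.2 CPM over a median of 58.4 to 101 in fl/fl and from 21.3 over a median of 75.9 to 112 in iADKO, again with iADKO 1 highest and iADKO 6 lowest of all mice. The log2 fold change was 0.26 ± 0.34 (SE; 95% interval -0.47 to 0.99; adjusted p = 0.58; exact permutation p = 0.707).

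Wt1 gave the smallest difference. Its CPM ran from 28.6 over a median of 42.6 to 70.9 in fl/fl and from 20.0 over a median of 53.9 to 62.3 in iADKO. The highest mouse was fl/fl 5 and the lowest was iADKO 6, and the iADKO range held every fl/fl mouse but fl/fl 5. The log2 fold change was 0.11 ± 0.25 (SE; 95% interval -0.44 to 0.66; adjusted p = 0.766; exact permutation p = 0.821).

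Of the uroplakins, Upk3b, which the mesothelium and the urinary tract lining both make, had the most reads of any member, 2785 to 7877 per library. In fl/fl it lay between 157 and 316 CPM with a median of 255, and in iADKO between 137 and 383 CPM with a median of 295. Here too iADKO 1 was highest and iADKO 6 lowest. The log2 fold change was 0.14 ± 0.24 (SE; 95% interval -0.38 to 0.66; adjusted p = 0.688; exact permutation p = 0.703).

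Upk1b, a tetraspanin that pairs with other uroplakins in the urinary tract, behaved otherwise. It was between 25.5 and 54.1 CPM with a median of 43.9 in fl/fl, and between 43.0 and 102 CPM with a median of 50.6 in iADKO. The mouse at 102 CPM was iADKO 6, the lowest mouse for the 4 genes above, and only it and iADKO 5, at 64.1 CPM, exceeded the fl/fl range. The log2 fold change was 0.53 ± 0.23 (SE; 95% interval 0.03 to 1.03; p = 0.041, adjusted p = 0.101; exact permutation p = 0.0653).

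Krt19 came closest to the threshold. It ranged from 26.8 CPM over a median of 46.2 to 58.4 in fl/fl and from 49.4 over a median of 61.1 to 81.3 in iADKO. The highest mouse was again iADKO 6, and the genotypes overlapped because iADKO 2 and iADKO 3 lay below the highest fl/fl mouse. The log2 fold change was 0.50 ± 0.18 (SE; 95% interval 0.10 to 0.89; p = 0.0176, adjusted p = 0.0553), and the exact permutation p was 0.0152. Krt19 alone of the 6 changed its call with the processing: DESeq2's Wald test gave an adjusted p of 0.0314, and a filter of at least 10 counts in every library 0.0486. Leaving out fl/fl 2 or fl/fl 5 gave 0.0356 and 0.0417, while leaving out iADKO 6 gave 0.112 with a log2 fold change of 0.41.

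**Figure D1:**
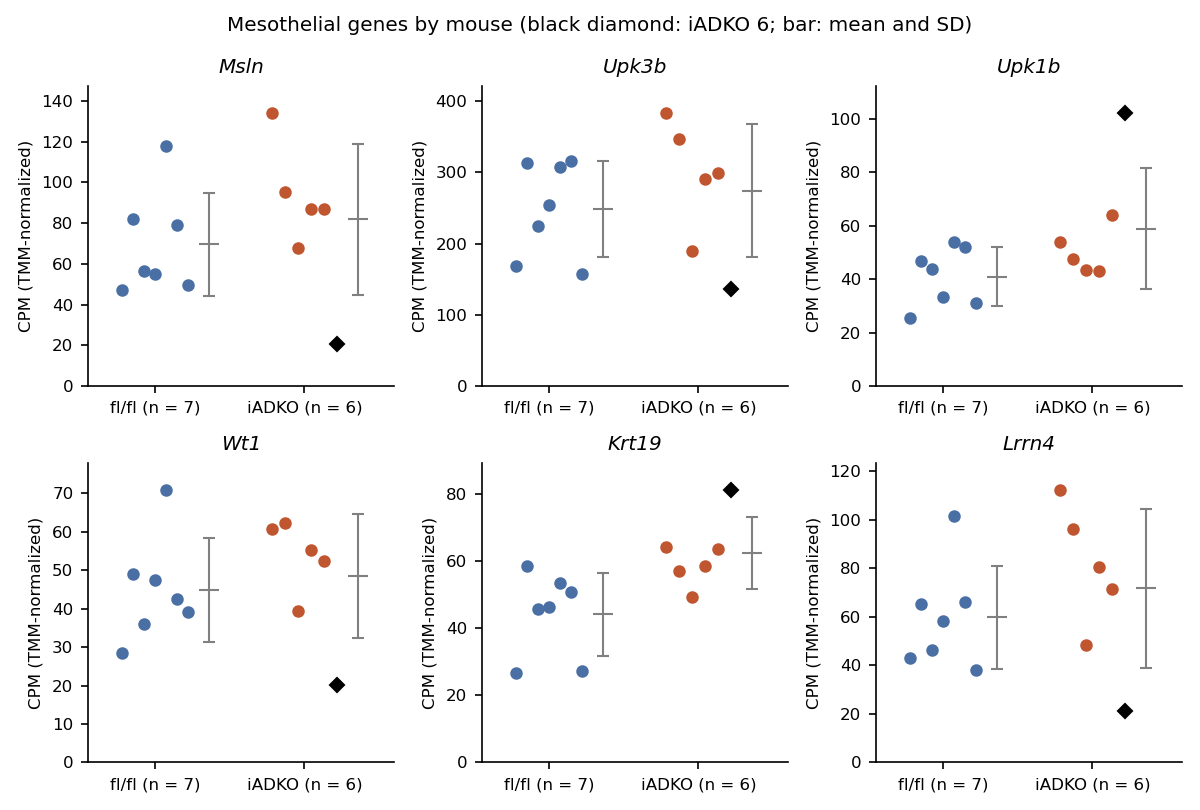
CPM of the 6 members in each mouse, 7 fl/fl in blue and 6 iADKO in orange with iADKO 6 as a black diamond; the gray bar is the mean with its SD. The diamond is the lowest of 13 mice in the panels of Msln, Upk3b, Wt1 and Lrrn4 and the highest in those of Upk1b and Krt19.

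Per kilobase of annotated exon, the members kept much the same order in both genotypes. Upk3b was at 70.6 ± 19.2 CPM per kb (SD, n = 7) in fl/fl and 77.7 ± 26.6 (SD, n = 6) in iADKO. Krt19 followed at 23.8 ± 6.71 and 33.6 ± 5.77, and Msln at 15.5 ± 5.62 and 18.2 ± 8.25. The lower 3 were Upk1b (10.6 ± 2.87 and 15.3 ± 5.86), Lrrn4 (7.29 ± 2.60 and 8.74 ± 4.02) and Wt1 (6.95 ± 2.09 and 7.51 ± 2.50). Each of the upper 4 exceeded the next gene in 12 or 13 of the 13 mice, but Lrrn4 exceeded Wt1 in only 9, so those neighbours were not separated beyond the spread between mice. Exon length here is that of all annotated transcripts together, so these levels depend on which transcripts the tissue uses.

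The spread between mice was wide within both genotypes. The SD of log2 CPM in fl/fl was 0.41 for Wt1 and Upk1b, 0.42 for Upk3b, 0.46 for Krt19, 0.47 for Lrrn4 and 0.48 for Msln, against a median of 0.20 over all genes tested. Each of the 6 was more variable between fl/fl mice than 81.2% to 86.8% of genes. On the linear scale the highest fl/fl mouse stood 2.01 to 2.65 times above the lowest, depending on the member.

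In iADKO the members parted. The SD of log2 CPM was 0.94 for Msln, 0.87 for Lrrn4, 0.62 for Wt1 and 0.57 for Upk3b, but 0.47 for Upk1b and 0.24 for Krt19, with 0.17 as the median of all genes. The ratio of the highest to the lowest mouse was 6.53 for Msln and 5.27 for Lrrn4, and 1.65 for Krt19. Without iADKO 6 the SDs were 0.35 for Msln, 0.46 for Lrrn4, 0.27 for Wt1, 0.39 for Upk3b, 0.24 for Upk1b and 0.15 for Krt19. The median over the members was then 0.31, compared with 0.60 with that mouse and 0.44 in fl/fl. Counting error made up at most 2.83% of the variance of any member in either genotype, and the rest holds differences between mice, dissection and library preparation, which cannot be told apart.

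Between fl/fl mice the 6 genes moved as a block. All 15 pairwise Pearson correlations of log2 CPM lay between 0.70 and 0.96 there, with a median of 0.86 over 7 libraries. The lowest mouse was fl/fl 1 for 4 of the 6 members and fl/fl 7 for the other 2, and the highest was fl/fl 5 for 4. Of all 16753 genes tested, 2572 were lowest in fl/fl 1, 4905 in fl/fl 1 or fl/fl 7, and 4180 were highest in fl/fl 5. In those samples the summed CPM of the members was 340 (fl/fl 1), 343 (fl/fl 7) and 705 (fl/fl 5). The adipocyte markers ran from 18127 CPM in fl/fl 1 and 14786 in fl/fl 7 to 9428 in fl/fl 5, the lowest of the 7. The macrophage markers were at 1203 CPM in fl/fl 1, 1685 in fl/fl 7 and 2258 in fl/fl 5, the highest. The macrophage order was not that of the members: fl/fl 6 had 1178 CPM, below fl/fl 7, but 606 CPM of the members. The adipocyte markers fell as the members rose, except for the order of fl/fl 3 and fl/fl 7. They were at 16698 CPM in fl/fl 3, 14026 in fl/fl 4, 13797 in fl/fl 6 and 13150 in fl/fl 2. The members were at 454, 495, 606 and 615 CPM in the same libraries. The part of either marker set in the spread of the members was not tested.

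Over all 13 libraries, with each genotype's mean subtracted, the members fell into 2 sets, which were drawn after their values were seen and carry no test as sets. Within Msln, Upk3b, Wt1 and Lrrn4 the 6 correlations were 0.87 to 0.97. For Msln with Lrrn4, r was 0.97 (permutation p = 1e-05, the smallest 100000 permutations within genotype can give; 7.5e-05 adjusted over 15 pairs) and Spearman's rho was 0.92 (p = 1e-05, adjusted 0.00015). The r without the 2 mice farthest from the median of Msln was 0.93. Upk1b with Krt19 gave r = 0.83 (permutation p = 0.00014, adjusted 0.00042) and rho = 0.85 (p = 0.00044, adjusted 0.0011), and 0.78 without the 2 farthest mice.

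Between these sets the 8 correlations were -0.20 to 0.43. Msln with Upk1b, for example, had r = -0.20 (permutation p = 0.533, adjusted 0.688) and rho = 0.24 (p = 0.441, adjusted 0.601), but 0.44 without the 2 farthest mice. In fl/fl alone the same 8 pairs lay between 0.70 and 0.96, and in iADKO alone between -0.78 and -0.36. Without iADKO 6 the 8 pairs were 0.61 to 0.88 over 12 libraries, which pool both genotypes with each genotype's mean subtracted. Correlations in the iADKO mice alone without iADKO 6 were not computed.

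**Figure D2:**
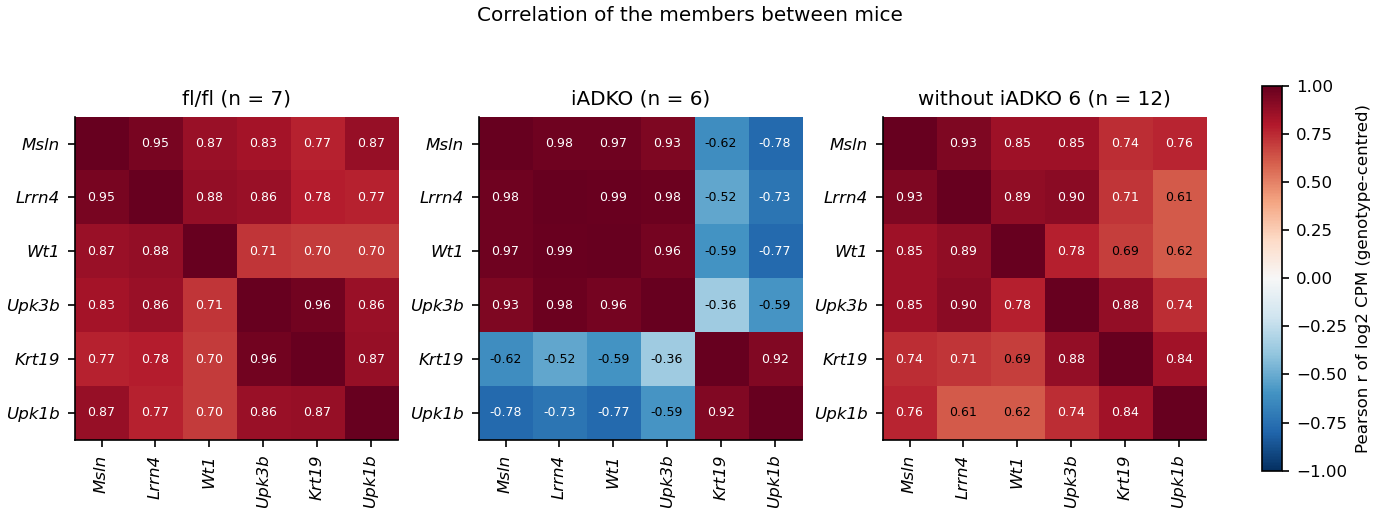
Pearson r of log2 CPM, with genotype means subtracted, for each pair of members in fl/fl (n = 7), iADKO (n = 6) and all libraries without iADKO 6 (n = 12); color runs from -1 (blue) to 1 (red). All pairs are positive in fl/fl and without iADKO 6, whereas Krt19 and Upk1b are negative against the other 4 members in iADKO.

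The library of iADKO 6 also differed in other epithelial genes. Upk1a, Upk2 and Upk3a encode the uroplakins that build urinary tract plaques together with Upk1b. Their summed level was 177 CPM in iADKO 6, 38.9 in iADKO 5, 25.5 in iADKO 3, 25.1 in fl/fl 3 and 12.8 in fl/fl 6, and 0.292 to 0.658 CPM in the other 8 libraries. Upk2 had 611, 166, 93, 86 and 36 reads in those 5 libraries and 0 in the other 8, where a count of 0 allows up to 3 reads, or 0.14 to 0.172 CPM by library. The grouping into 5 and 8 libraries, by over 10 Upk2 reads, was made after the values were seen. Krt20, a keratin of the urinary tract and gut, was at 2.48 to 19.1 CPM in the 5 libraries and 0.0973 to 0.494 in the 8. Cdh1, the adhesion protein of epithelia, and Cldn4, a tight junction protein, were at 2.76 to 37.2 and 1.77 to 27.4 CPM in the 5, and at most 0.72 and 0.373 CPM in the 8. All were highest in iADKO 6. A list of 12 markers of reproductive tract and other epithelia, Cdh1 and Cldn4 among them, summed to 4.78 to 48.2 CPM in fl/fl and 24.6 to 107 CPM in iADKO, and of the 6 with enough reads none passed the test. In some libraries without Upk2 reads much of that sum was Ltf, a secreted iron-binding protein. It was at 39.6 CPM in fl/fl 5, 40.7 in fl/fl 7 and 56.0 in iADKO 2, so the sum did not follow the 5 and 8 libraries. In iADKO 6, fl/fl 3 and iADKO 3, Ltf made up 14.8 of 107, 0.462 of 21.8 and 6.69 of 24.6 CPM. Epcam, Elf3, Esrp1 and Grhl2 were highest in iADKO 6, at 8.15, 6.24, 6.24 and 3.68 CPM. Muc1 and Cldn3 were at 1.52 and 0.687 CPM there, and reached 3.02 in fl/fl 7 and 2.49 in iADKO 4. Ovgp1 and Foxj1 were at most at 1.23 and 0.337 CPM in any library.

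Upk1b and Krt19 were highest in iADKO 6, where Upk1a, Upk2, Upk3a, Krt20, Cdh1 and Cldn4 were also highest, and the other members were lowest there. Taken per read of Upk3b in the same library, a ratio no scaling can change, Upk1b stood at 0.13 to 0.197 in the 8 libraries without Upk2 reads, whatever the genotype. In the other 5 it was 0.164 (fl/fl 6), 0.195 (fl/fl 3), 0.214 (iADKO 5), 0.229 (iADKO 3) and 0.747 (iADKO 6). Krt19 per Upk3b read was 0.158 to 0.201 in the 8 and 0.161, 0.203, 0.212, 0.26 and 0.594 in the same 5. Msln per Upk3b read was 0.216 to 0.383 in the 8 and 0.15 in iADKO 6, the lowest of all. Wt1 and Lrrn4 per Upk3b read were 0.146 and 0.156 in iADKO 6, with 0.157 to 0.248 and 0.207 to 0.33 in the 8. In the other 4 libraries with Upk2 reads, Wt1 was between 0.135 and 0.207, the lowest of all 13 being fl/fl 6, and Lrrn4 between 0.206 and 0.255. The urinary tract lining also makes Upk3b, so these ratios cannot tell a change in Upk3b reads from one in the other gene.

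Other cell types also varied in these samples. The 8 smooth muscle markers summed to 2550 CPM in iADKO 5 and 1910 in iADKO 6, and to 561 to 1130 in all other libraries. Adipocyte markers reached 11192 CPM in iADKO 6, the highest of the 6 iADKO mice, with 6516 to 8520 in the rest. Macrophage markers were at 1580 CPM there, the lowest of the iADKO mice, which otherwise had 2223 to 2705. Of the 6 ovarian markers in the table the sum never exceeded 6.74 CPM, and Pax8, a defining gene of the female reproductive tract lining, had at most 1 read per library (0.0491 CPM). The part of any of these in the members' values was not tested.

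**Figure D3:**
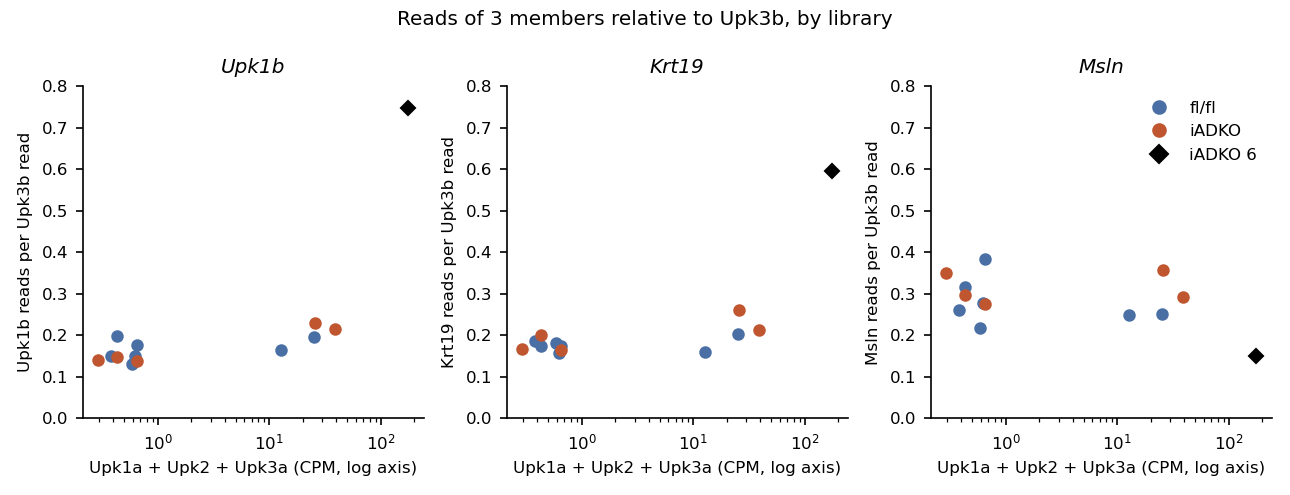
Reads of Upk1b, Krt19 and Msln per read of Upk3b in each library, against the summed CPM of Upk1a, Upk2 and Upk3a on a log axis; fl/fl in blue, iADKO in orange, iADKO 6 as a black diamond. Upk1b and Krt19 stand at 0.747 and 0.594 in iADKO 6, far above the other libraries, where Msln is at 0.15.

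Leaving out libraries showed how much of each difference rested on them. Without iADKO 6, Msln, Upk3b, Wt1 and Lrrn4 had log2 fold changes of 0.44 ± 0.24, 0.28 ± 0.21, 0.27 ± 0.19 and 0.45 ± 0.26 (SE; adjusted p of 0.182, 0.329, 0.298 and 0.197), and Upk1b fell from 0.53 to 0.30 ± 0.19 (adjusted p = 0.231). Other mice moved the same values the other way. Without iADKO 1 the log2 fold changes were 0.04 for Msln, 0.02 for Upk3b and 0.09 for Lrrn4, and without iADKO 2 that of Wt1 was 0.03. Without all 5 libraries that held Upk2 reads, 5 fl/fl and 3 iADKO mice remained. The log2 fold changes were then 0.58 for Msln, 0.65 for Lrrn4, 0.50 for Upk3b and Krt19, 0.34 for Wt1 and 0.33 for Upk1b, with adjusted p between 0.196 and 0.39, and 9.63% of 17058 genes passed the test. All 6 differences were again above 0 and none passed.

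Animal numbers in the library names fall into series, whose meaning the labels do not give, and the members differed between them. Among mice of the series 74x-76x, 3 fl/fl and 2 iADKO, all 6 members were higher in iADKO, by 0.43 (Upk1b) to 1.04 (Lrrn4) in mean log2 CPM. Among mice of the series 72x, 2 of each genotype, the differences were -0.93 for Msln, -0.89 for Lrrn4, -0.80 for Wt1 and -0.49 for Upk3b, but 0.64 for Upk1b and 0.47 for Krt19. That series holds iADKO 6. With iADKO 4 alone against the 2 fl/fl mice of the series, the 6 differences were between -0.07 and 0.24. The other series held 1 genotype each and give no difference.

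A wider list of mesothelial genes gave few calls between genotypes. Of 20 further genes known from the mesothelium, 20 were in the table and 19 had enough reads to be tested. Calb2, which encodes calretinin, was not tested: it had 16 reads in fl/fl 7, 1 in fl/fl 1 and 0 in the other 11 libraries. Between genotypes, 2 of the 19 were higher in iADKO and 0 lower, beside 14.1% higher and 16.3% lower of all genes tested, so the share called was no larger than among genes in general. The log2 fold changes were all above 0, with a median of 0.24, beside 9158 above 0 of the 16753 genes tested. Most of the 19 genes varied together with the members between mice (13 with r over 0.7). Their signs are therefore not separate observations, and the shared sign is a description only. Both called genes were keratins. Krt18 had a log2 fold change of 1.44 ± 0.50 (SE; adjusted p = 0.0444) and its partner Krt8 one of 1.12 ± 0.38 (adjusted p = 0.043). Krt7 followed with 0.93 ± 0.38 (adjusted p = 0.0814). At the other end were Podxl (0.03), an apical sialomucin, Cldn15 (0.04), a claudin, and Sulf1 (0.05), a heparan sulfate sulfatase.

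Those keratins had the same high mouse as Krt19. Krt18 lay between 5.17 and 16.2 CPM in fl/fl, with a median of 8.50, and between 9.31 and 75.9 in iADKO, with a median of 15.3. Krt8 lay between 4.89 and 13.6 CPM with a median of 9.66, and between 10.03 and 50.2 with a median of 13.9. For both genes the groups overlapped, the 75.9 and 50.2 CPM were those of iADKO 6, and iADKO 5 was next at 22.8 and 23.1 CPM. Without iADKO 6 neither gene passed (log2 fold changes of 0.67 and 0.62, adjusted p of 0.099 and 0.0819), and Nkain4 alone did (0.57 ± 0.19, adjusted p = 0.0328). Both calls were also lost when fl/fl 1, 2, 4, 5, 6 or 7 or iADKO 3 or 5 was left out.

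**Figure D4:**
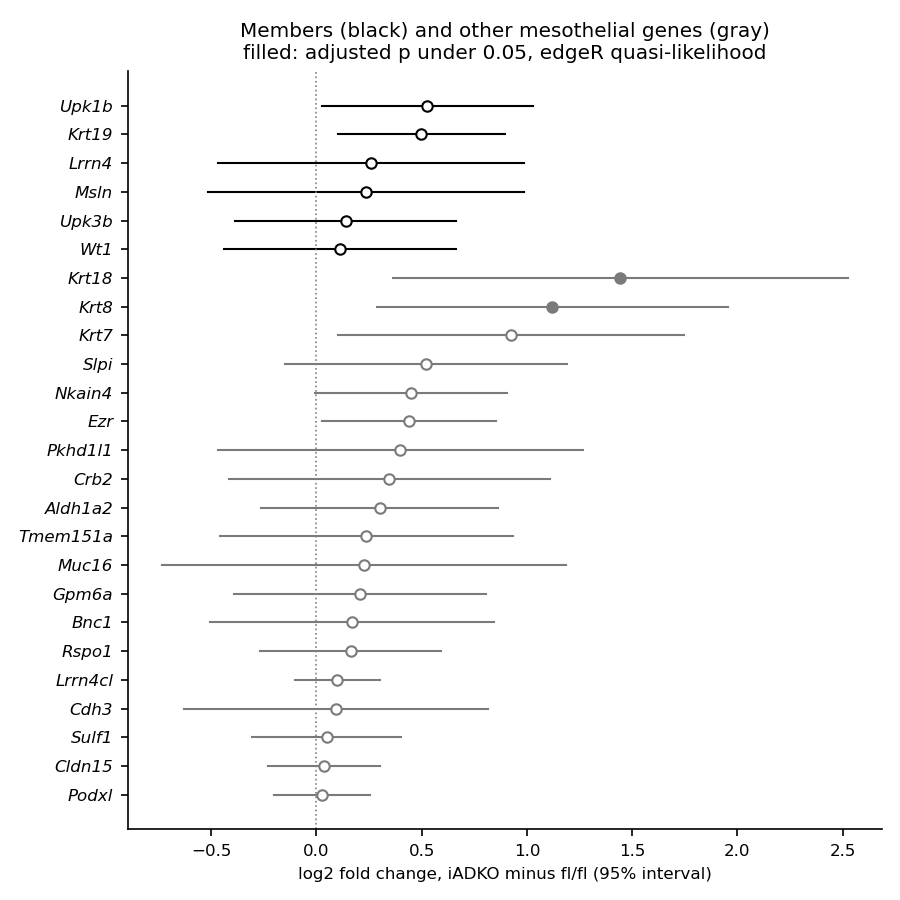
Log2 fold change of iADKO minus fl/fl with its 95% interval for the 6 members (black) and 19 other mesothelial genes (gray); filled points have an adjusted p under 0.05 by edgeR's quasi-likelihood test. All 25 points lie right of 0, and the filled ones are Krt18 and Krt8.

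Relatives of the members were mostly scarce in this tissue. Upk1a was the only other uroplakin with enough reads to be tested, at 3.08 CPM in fl/fl and 19.4 in iADKO on average (log2 fold change 2.66 ± 1.30, SE; adjusted p = 0.137), and it had a log2 fold change of 1.09 without iADKO 6 (adjusted p = 0.518). Upk3bl was at most at 0.196 CPM in any library. Of the Lrrn family, Lrrn2 was at 14.9 CPM in fl/fl and 17.1 in iADKO (0.20 ± 0.16, adjusted p = 0.343). Lrrn1 and Lrrn3 were at most at 2.74 and 1.82 CPM in any library, with log2 fold changes of 0.00 and 0.55 (adjusted p of 0.99 and 0.079).

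iADKO 6 was the lowest of all 13 mice for 10 of the 19 other genes and the highest for 3, Krt7, Krt8 and Krt18, as shown in the map of all genes by library. Over all 16753 genes tested, iADKO 6 was the lowest of the 13 in 1117 and the highest in 1316. Muc16, the mucin that mesothelin binds, was at 15.03 CPM there and between 26.8 and 125 CPM in every other mouse. Bnc1, a zinc finger factor of the mesothelium, was at 7.17 CPM there, with 11.9 CPM as the lowest of fl/fl. Slpi, a protease inhibitor, and Lrrn4cl had r of 0.33 and 0.13 with the members' mean.

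The genes whose differences between mice were most like those of the members were ranked by Pearson r with the members' mean, each gene scaled and with genotype means subtracted, over 13 libraries. The 8 highest of the non-member genes were Col4a6 (r = 0.98), a basement membrane collagen chain, Ptpn13 (0.97), a phosphatase, Sema5a (0.96), a semaphorin, Ccdc171 (0.96), Ift56 (0.95), a cilium transport protein, Sv2a (0.95), a vesicle glycoprotein, Espn (0.95), an actin bundler of microvilli, and Gpm6a (0.95), a membrane glycoprotein. Spearman's rho for these was 0.93 to 0.97. None passed the test between genotypes, and their log2 fold changes were 0.04 (Sema5a) to 0.55 (Espn). Of the 19 other mesothelial genes, 13 had an r over 0.7 with the members' mean, against 4.91% of all genes tested, and the lowest were Krt18 (-0.21), Krt8 (-0.08) and Krt7 (0.01). Since these points share libraries and genes were picked for their r, no p is given. The list of other mesothelial genes was chosen with earlier results of these data known, so its share is a description only.

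**Figure D5:**
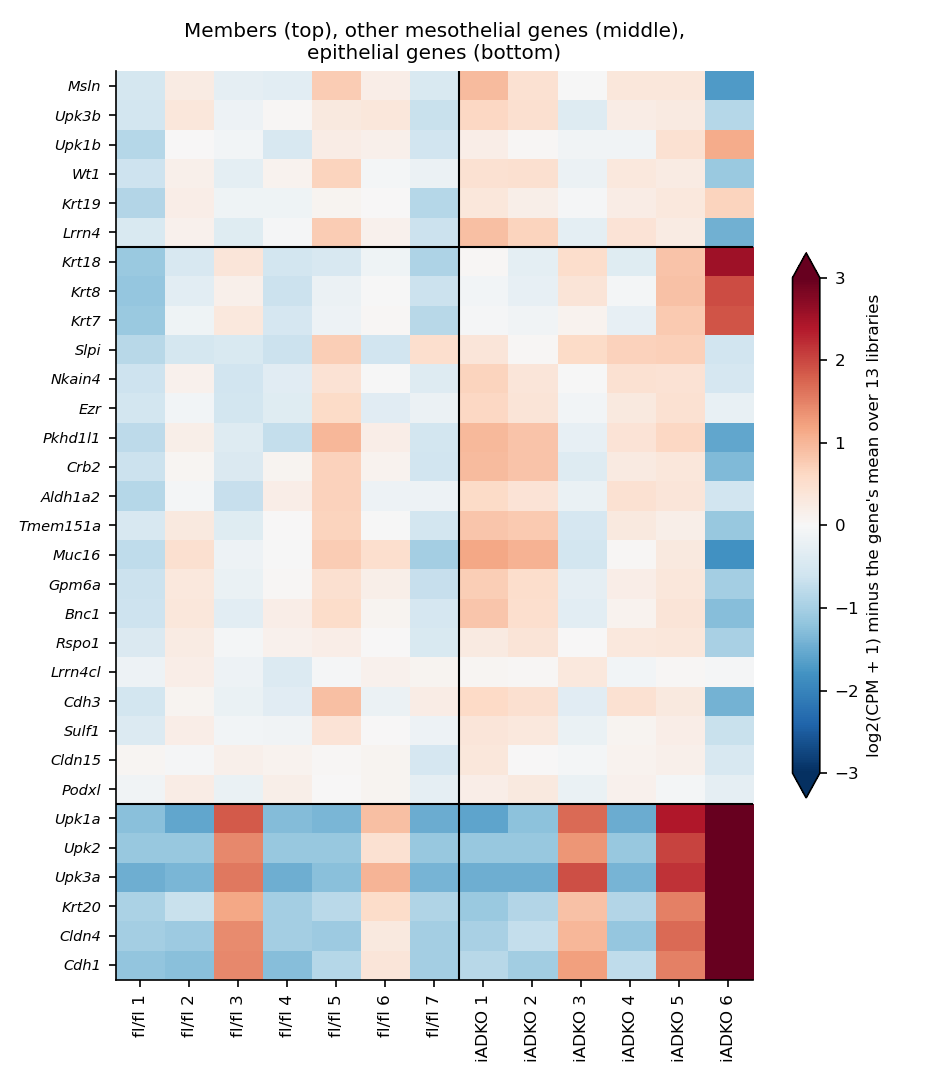
Log2(CPM + 1) minus each gene's mean over 13 libraries, blue below and red above, for the 6 members (top), 19 other mesothelial genes (middle) and 6 epithelial genes (bottom); columns are libraries, fl/fl left of the line. The column of iADKO 6 is blue for most mesothelial genes and red for Upk1b, Krt19, Krt18, Krt8, Krt7 and all 6 epithelial genes, which are also red in iADKO 5, iADKO 3, fl/fl 3 and fl/fl 6.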

How the data were processed

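Deposited were the authors' read counts for each gene, not normalized, and log2 values that they made from these with DESeq2's regularized log. Per the labels and the study's methods, powdered frozen whole tissue was extracted with RNA STAT-60, strand-specific mRNA libraries were sequenced, and reads were checked with FastQC 0.12.1 and aligned with STAR 2.7.11a to mm39. The counting tool, its strand setting and the annotation are not given in the sources used here. Of 33618 identifiers, 33184 were found in GENCODE vM39. Genotypes and replicate numbers came from the sample labels, which give 1 batch date for all libraries.

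In R 4.3.3, counts were filtered with filterByExpr, normalized by TMM and tested with edgeR 4.0.16's robust quasi-likelihood test, with a threshold of 0.05 on p-values adjusted by the Benjamini-Hochberg method over all genes tested. A prior count of 2 entered log2 CPM. For single genes, exact two-sided permutation p-values came from the 1716 ways to divide 13 mice into 7 and 6, and the smallest possible was 0.000583. Alternatives included DESeq2 1.42.0 and, on the deposited log2 values, limma 3.58.1. Between libraries of a genotype, chi-square per degree of freedom was 8.26 to 90.1, so none was a copy of another. Scripts were tested on simulated counts. Members and lists were chosen with earlier results of these data known. Named genes were the members, their families, the called and the 3 highest and 3 lowest of the other mesothelial genes, and the 8 genes most like the members. Other genes named were chosen after their values were seen.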

Additional observations from a re-analysis of the deposited data

Results flagged for a closer look

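In 72 sets of values, 36 genes in each genotype, Dixon's test of the gap between the farthest mouse and the rest picked out 4, and chance alone picks out about 1 in 20 sets. Msln in iADKO was lowest in replicate 6, at 20.5 CPM, and Rspo1, a secreted activator of Wnt signaling made by mesothelium, was lowest in the same mouse, at 21.7 CPM. Cldn15 in fl/fl was lowest in replicate 7, at 46.4 CPM. Ezr, which links the membrane to actin, was highest in fl/fl replicate 5, at 110 CPM. Causes were not tested.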

How the results depend on the processing

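All log2 fold changes of the 6 members kept their sign in every alternative fit, although 4 were below 0 within the animal-number series 72x. Of the results recomputed under each alternative, 224 kept their side of the threshold or their size, 20 moved and 4 became stronger, all 4 for Krt19. That tally is no measure of robustness. It includes the SD of each genotype after a mouse of the other was left out, which could hardly change. The members' median pairwise correlation also counted as kept at 0.78 without iADKO 6 and 0.88 without the 5 libraries with Upk2 reads, against 0.43. Krt19 passed with at least 10 counts in every library (0.50) and with DESeq2's Wald test (0.48), which made 1 member called in each, and over fits without 1 mouse its log2 fold change was 0.41 to 0.58 and the members called 0 to 1. The calls among other mesothelial genes, 2 at first, were 0 with no filter on low counts, with limma on the deposited log2 values, with the animal-number series as a block and, an alternative chosen after seeing the data, without the 5 libraries with over 10 Upk2 reads, and 0 to 3 without 1 mouse. Over all genes the calls were 1986 (784 higher, 1202 lower) with the series block and 1643 (478 higher, 1165 lower) without the 5 libraries, against 5104, and 3998 to 6604 without 1 mouse. The median SD of the members in iADKO was 0.18 without the 5 libraries and 0.31 to 0.66 without 1 mouse. The cause was not tested.

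Deviations of same-numbered mice correlated at r of -0.03 to 0.22 across genes, over 0.1 in 3 of 6 pairs, and at -0.40 to 0.90 over the 6 members. Since not every pair was over 0.1 and the labels give the numbers no meaning, the mice were not treated as paired. With the replicate block and without fl/fl 7, 0 members, 2 other mesothelial genes (Krt8 and Slpi) and 4833 genes were called. The log2 fold changes were then 0.08 for Msln, 0.0050 for Upk3b, 0.05 for Wt1 and 0.08 for Lrrn4. A limit set by depth was not tested, as all libraries had similar depth.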
